A study of Rattus norvegicus with 12 samples.

Results

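The Krueppel-like factors (Klf) are zinc finger transcription factors, and 10 of them were followed here through the first hours of PACAP38 treatment of PC12 cells: Klf2, Klf3, Klf4, Klf5, Klf6, Klf7, Klf9, Klf10, Klf13 and Klf15. Members were all non-control probes whose gene name on the array was 1 of these 10 symbols, which gave 19 probes for 10 genes among 41012 probes with 33212 different gene names or identifiers. PC12 is a rat pheochromocytoma cell line of adrenal chromaffin origin that grows neurites when it differentiates, and PACAP38 is a neuropeptide that acts on G protein-coupled receptors. PC12 cells received 1e-07 M PACAP38 in the medium for 5, 10 or 15 min or for 30, 60 or 120 min, and each treated group was set against the control group of its own time point. RNA of n = 6 per group was pooled, and each pair of pools was hybridised to 2 two-colour Agilent whole rat genome arrays with Cy3 and Cy5 exchanged, so that there were 12 arrays but 1 replicate per time point.

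Krueppel-like factors bind GC-rich and CACCC elements through C2H2 zinc fingers at the carboxyl end, which are highly alike between members, while their amino ends differ and recruit either activators or repressors. Klf4 and Klf2 are known for growth arrest and differentiation, Klf6 and Klf7 for axon growth, Klf9 for its response to glucocorticoid and thyroid hormone, Klf10 as a repressor induced by TGF-beta, Klf5 for proliferation, Klf15 for metabolism, Klf3 as a repressor and Klf13 as an activator of the chemokine gene Ccl5 in T cells. Several of them are early response genes in other cells.

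The label PC12 was checked against chromaffin markers. All 9 such markers found on the array (Th, Ddc, Dbh, Chga, Chgb, Scg2, Slc18a1, Phox2a and the PACAP receptor gene Adcyap1r1) were well above background on all 12 arrays, while Cyp11b1 and Star of adrenal cortex, Gfap of glia and Ptprc of leukocytes passed that flag on no array. Mbp, the other glial marker, passed on 4 arrays in the PACAP38 RNA and on 3 in the control RNA, and Dcn of fibroblasts on 4 and 5. Col1a1 and Cd68, named for fibroblasts and macrophages, passed in both RNAs on all 12 arrays, and the fibroblast gene Col1a2 on 11 arrays in each RNA, not the same 11. Of the chromaffin markers 1 was called, the granin gene Scg2, higher at 120 min with log2 folds of 1.03 and 1.02. Of all probes 1.95% were called higher at 120 min, and 3.9% were called at some time in either direction. Dbh and Th, enzymes of catecholamine synthesis, were at 1.60 with 0.88 and at 1.11 with 0.60 at 120 min and were not called. Ddc, another enzyme of that synthesis, was at -0.05 with -0.25 and Phox2a at -0.55 with -0.30. None of the 9 markers of other cells was called, Cd68 being at 0.98 with 0.93 at 120 min, and the part of such cells was not tested. In the control channel 38.4 to 49.6% of the spots passed the well above background flag of the scanner software, none was saturated, and the arrays of 60 and 120 min shared 1 slide, as did those of 15 and 30 min and those of 5 and 10 min.

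Of the 10 factors 3 passed 2-fold at some time point by the rule given below, beside 3.9% of all probes. Among probes well above background at some time point the share was 8.48%. Klf4 was higher from 10 min on and reached 104-fold by 60 min, Klf7 was higher late, 3.58-fold after 120 min, and Klf10 was lower by 3.77-fold at 60 min and by 3.74-fold at 120 min. Klf5, Klf6, Klf9 and Klf13 were measured on all 12 arrays and stayed under 2-fold, and Klf2, Klf3 and Klf15 were not well above background in either RNA on any array, so that no fold is given for them. A gene was counted as called at a time point where PACAP38 over control was at least 2 or at most 0.5, with a spot p below 0.01, on both dye-swapped arrays in the same direction, and each gene was read from its brightest probe. The 2 arrays of a time point carry the same pools, so no test of treatment against control at one time point was possible, and both arrays' values are given as the precision. In pooled bulk RNA a change in the share of expressing cells and a change of RNA per cell cannot be told apart.

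At 5 min no member was called, where 0% of all probes were called as well. At 10, 15 and 30 min 1 member was called, Klf4, against 0.0659%, 0.117% and 0.351% of all probes. At 60 min 2 members were called against 1.25% of all probes, and at 120 min 3 members against 3.48%. The median log2 fold of the 7 measured members was 0.27 at 60 min and 0.26 at 120 min, beside -0.02 and -0.03 over all probes well above background. With normexp and median centring the members' median at 120 min was -0.05, beside -0.12 over all probes.

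**Figure D1:**
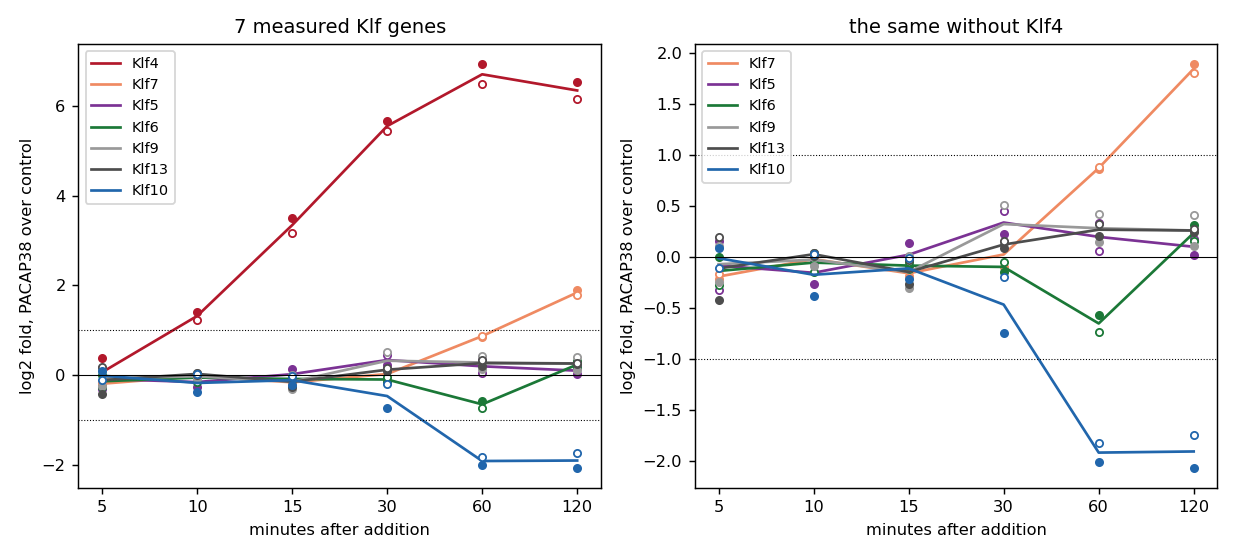
Log2 fold of PACAP38 over control (vertical axis) against minutes after addition (horizontal axis, equal steps) for the brightest probe of the 7 measured Klf genes, with all 7 on the left and Klf4 left out on the right. Filled points are arrays with PACAP38 in Cy5, open points those with PACAP38 in Cy3, lines their means, and dotted lines mark 2-fold. Klf4 climbs from 10 min to 6.71 at 60 min, Klf7 rises late to 1.84, and Klf10 falls to -1.92.

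Klf4, a factor known for growth arrest and for its place among the reprogramming factors, moved first. Its array probe lay at chr5:73446994-73447053 (rat build rn4, minus strand). The centre of that probe, bases 16 to 45 of 60, is shown because the largest difference of the family was read there:
Klf4 probe centre: cagatgtgcaataatttgtacaatggttta
After scaling between arrays, the control signal of Klf4 was 179, 201, 178, 202, 189 and 193 fluorescence units, in the order of the 6 time points. The PACAP38 signal was 187, 500.5, 1809, 9487, 19703 and 15706 units at the same times. The control pools thus stayed within a narrow band, while the treated pools lay above every control pool from 10 min on. The log2 folds of the arrays with PACAP38 in Cy5 and in Cy3 were 0.39 and -0.26 at 5 min. They were 1.41 with 1.23 after 10 min, 3.51 with 3.18 after 15 min and 5.66 with 5.45 after 30 min. The last time points gave 6.93 with 6.48 (60 min) and 6.53 with 6.16 (120 min). At 5 min the 2 arrays had opposite signs, and from 10 min on both lay far on the same side. By log2 fold Klf4 stood at rank 30 among 16206 measured probes after 10 min, and at ranks 9, 5, 6 and 8 at the following time points, among 16444 to 18327 probes. Between 60 and 120 min, on the same slide, its log2 fold fell by 0.40 on one array and by 0.32 on the other. The size of the fold depended on the processing: normexp with loess gave 52.5-fold at 60 min in place of 104-fold, and Klf4 was not called at 10 min with either normexp setting.

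**Figure D2:**
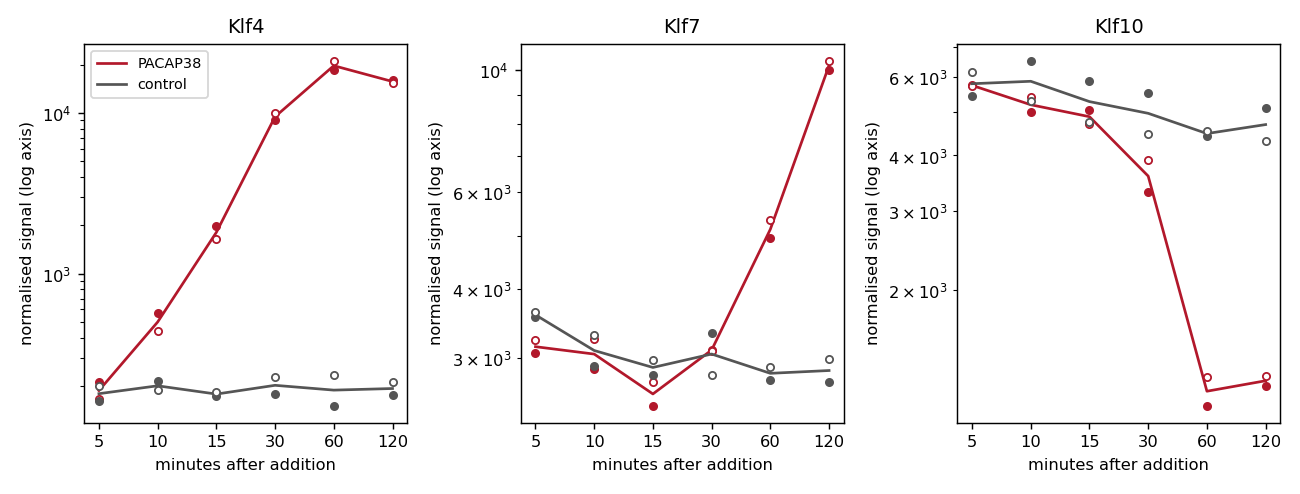
Normalised signal in fluorescence units (vertical axis, log scale, different range in each panel) against minutes after addition for the brightest probes of Klf4, Klf7 and Klf10. Red is PACAP38 and grey is control, filled and open points are the arrays with PACAP38 in Cy5 and in Cy3, and lines join their means. The Klf4 control stays between 178 and 202 while its PACAP38 signal reaches 19703, Klf7 leaves its control at 60 min, and Klf10 drops to 1187 at 60 min.

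Klf7, known for axon growth, rose late. It had 2 probes, both on chromosome 9 of rn4 (minus strand), and both held bases that read in frame as a zinc finger. In the first finger probe these were bases 31 to 60 only. They are shown because they lie at least in part in the most conserved region of the family, and they gave the same course. Capitals mark the bases from the first cysteine codon of the first finger to its conserved aromatic codon, or of the second finger from cysteine to the first histidine:
Klf7 second finger, chr9:62699433-62699492: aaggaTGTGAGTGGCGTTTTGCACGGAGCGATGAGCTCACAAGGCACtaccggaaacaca
Klf7 first finger, chr9:62737502-62737561: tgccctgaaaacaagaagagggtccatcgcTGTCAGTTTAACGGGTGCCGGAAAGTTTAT
On the second finger probe, the brighter one, the control signal was 3593, 3095, 2883, 3050.0, 2814 and 2847 units from 5 to 120 min. The PACAP38 signal was 3145, 3049, 2581, 3101, 5142 and 10205 units. Treated and control pools overlapped up to 30 min and were apart at 60 and 120 min. The log2 fold lay between -0.22 and 0.15 on all 8 arrays up to 30 min. It was 0.86 and 0.88 at 60 min, with spot p 8.9e-05 and 5.7e-05, and rose to 1.89 with 1.80 after 120 min. At 60 min the gene therefore met the p limit but not the fold limit, and it was called with a fold limit of 1.5. At 120 min it was not called with normexp and median centring, where the 2 arrays gave 1.84 and 0.96. The first finger probe gave 0.88 with 0.80 after 60 min and 1.83 with 1.77 after 120 min. Between 60 and 120 min, within 1 slide, the log2 fold of the brighter probe rose by 1.03 and 0.91 on the 2 arrays.

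Klf10, first described as a TGF-beta-inducible early gene and a repressor of transcription, fell. Its brighter probe lay at chr7:73821297-73821356 (rn4, minus strand), and the centre of it, where the largest fall of the family was read, was:
Klf10 probe centre: tttctgtatctcataggtttctgacatgca
The control signal was 5789, 5862, 5279.8, 4970.1, 4478 and 4690.5 units from 5 to 120 min. The PACAP38 signal was 5740.4, 5195, 4885, 3597, 1187 and 1253 units. The treated pools of 60 and 120 min lay far below all 6 control pools. The log2 folds were -0.74 with -0.19 after 30 min, -2.005 with -1.826 after 60 min and -2.06 with -1.75 after 120 min. At 30 min only the array with PACAP38 in Cy5 had a spot p under the limit, and the gene was not called. The second Klf10 probe (chr7:73822173-73822232) gave -1.40 with -1.71 after 60 min and -1.89 with -1.40 after 120 min, and at 30 min its 2 arrays had opposite signs. From 60 to 120 min, within 1 slide, the brighter probe moved by -0.06 and 0.08, so the lower level held.

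The nearest relative of Klf10 is Klf11, also known as a TGF-beta-inducible repressor. Klf11 is not among the 10 members, but was on the list of other Klf and Sp genes, and it was the single gene of that list to be called at any time. It was called lower at 30, 60 and 120 min. Its control signal was 192, 147 and 129.8 units and its PACAP38 signal 89.8, 41.3 and 40.5 units at those times. The log2 folds were -1.14 with -1.06 after 30 min, -1.91 with -1.75 after 60 min and -1.50 with -1.86 after 120 min, where the PACAP38 RNA was well above background on 1 of the 2 arrays. With normexp and loess the means at those times were -0.20, -0.45 and -0.28, and with normexp and median centring -0.21, -0.46 and -0.33. All were below 0 but under 2-fold, so the size of the Klf11 change depended on the processing. The normexp settings add an offset of 50 units to each signal, which by construction draws the ratios of probes as dim as this one toward 1. The part of the offset in the difference was not tested. The second Klf11 probe was too dim on most arrays to be compared. On the processed signals Klf11 was lower by over 2-fold on both arrays at 30 min, when Klf10 was so on neither, and this order did not hold with normexp.

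**Figure D3:**
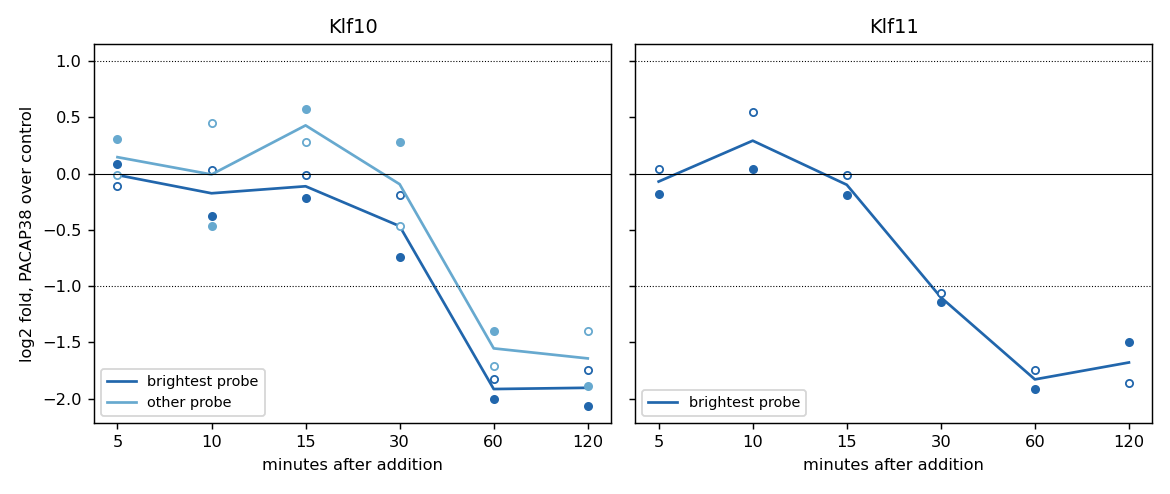
Log2 fold of PACAP38 over control (vertical axis) against minutes after addition (horizontal axis, equal steps) for both probes of Klf10 on the left and the brightest probe of Klf11 on the right. Filled points are arrays with PACAP38 in Cy5, open points those with PACAP38 in Cy3, lines their means, and dotted lines mark 2-fold. Both genes lie below -1 at 60 and 120 min, and Klf11 is at -1.10 already at 30 min, a size that was -0.20 with normexp and loess.

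Klf6, known for a role in axon growth and as a growth suppressor, was read by 5 probes, all on the minus strand of chromosome 17 between 75576511 and 75581609 (rn4). It never reached 2-fold, but all its probes turned together late. At 60 min all 10 values of the 5 probes lay below 0, from -0.76 to -0.20 in log2 fold. At 120 min all 10 lay above 0, from 0.05 to 0.95. At 5, 10, 15 and 30 min the 10 values were of mixed sign. The probes share the pools and the arrays, so they are repeated readings and not replicates. On the brightest probe the log2 fold was -0.57 and -0.73 at 60 min, with spot p 0.0071 and 0.00063, and 0.32 and 0.15 at 120 min, with spot p 0.12 and 0.45. Its PACAP38 signal was 1254 units at 60 min and 2426 units at 120 min, beside 1970 and 2061 units in the control pools. Between these times, within 1 slide, its log2 fold rose by 0.88 on one array and by 0.89 on the other. With normexp and loess the values were -0.58 and 0.17, and with normexp and median centring -0.55 and -0.04, so the sign at 120 min depended on the scaling.

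**Figure D4:**
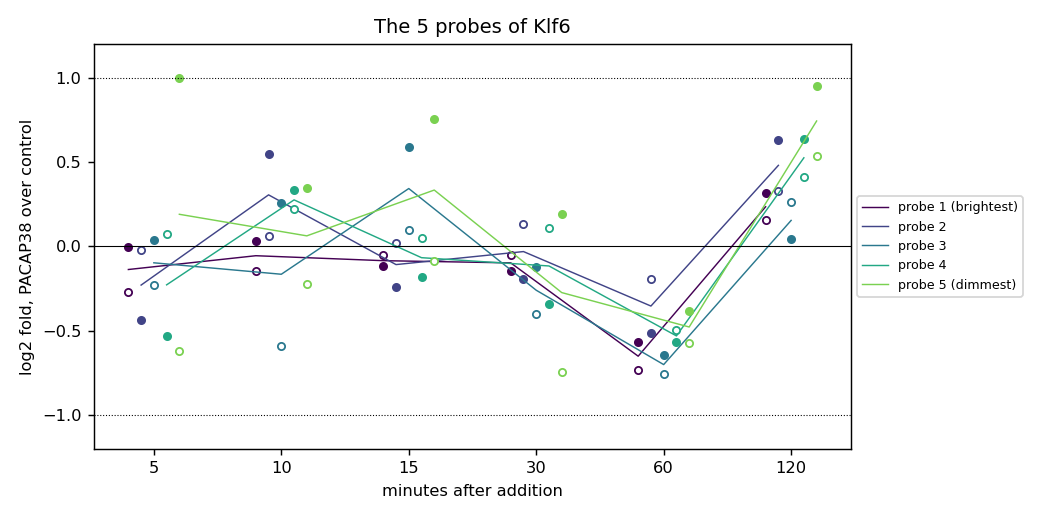
Log2 fold of PACAP38 over control (vertical axis) against minutes after addition (horizontal axis, equal steps, probes set side by side) for the 5 probes of Klf6, ordered from brightest to dimmest. Filled points are arrays with PACAP38 in Cy5, open points those with PACAP38 in Cy3, lines their means, and dotted lines mark 2-fold. All 10 points lie below 0 at 60 min and all 10 above 0 at 120 min.

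Klf5, Klf9 and Klf13 were present in control and treated cells and were called at no time. Klf5, a factor known to promote proliferation, had control signals of 355 to 526 units and log2 folds from -0.32 to 0.45 over the 12 arrays. Its second probe, in the zinc finger region, gave 0.75 on 1 array at 60 min, the one of its 12 values with a spot p under the limit. Klf9, a steroid-responsive factor, had control signals of 901 to 1180.1 units and log2 folds from -0.31 to 0.51, with both arrays above 0 at 30, 60 and 120 min. Its second probe did not follow at 60 min, with a mean of -0.10, and had 1 value with a spot p under the limit, -0.81 on 1 array at 15 min. Klf13 had control signals of 1109 to 1349.7 units and log2 folds from -0.42 to 0.33, also above 0 on both arrays at 30, 60 and 120 min. With normexp and median centring the means of Klf5, Klf9 and Klf13 at 120 min were -0.15, -0.05 and -0.05. The brightest probes of these 3 genes had no spot p under the limit on any array. Of all measured probes, 88.3% at 60 min and 69.4% at 120 min lay within 0.5 of 0 in log2 fold.

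Klf2, known in endothelium and in quiescent lymphocytes, Klf3, a CtBP-binding repressor, and Klf15, known in muscle and metabolism, gave 4.14 to 21.9 units, 5.03 to 29.0 units and 4.39 to 10.7 units on their brightest probes. None of these was well above background, and a level under background is not absence. The Klf2 probe and the dimmer Klf5 probe also lie in the first zinc finger, and are shown because they are the readings nearest in sequence to the conserved region of the other members, with the same capitals as above:
Klf2 first finger, chr16:17942544-17942603: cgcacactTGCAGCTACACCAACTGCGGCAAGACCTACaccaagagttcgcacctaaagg
Klf5 first finger, chr15:83106653-83107797: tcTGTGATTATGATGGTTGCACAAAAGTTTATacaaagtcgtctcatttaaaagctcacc
The Klf5 probe spans 1145 bases of the genome for its 60 bases. Over the 30 capital bases Klf5 and Klf7 were identical at 21, Klf2 and Klf7 at 13, and Klf2 and Klf5 at 11. Among the 156 pairs of probes of different members, the longest run of identical bases was 9, and the longest that the Klf4 probe shared with any other was 7.

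The design allows one comparison over independent pools, which is over time. A slope of the dye-averaged log2 fold on log2 minutes was fitted with limma over 20203 probes, of which 0.728% passed an adjusted p of 0.05. Of the 7 members tested 1 passed, Klf4, with a slope of 1.54 ± 0.21 (SE) per doubling of time and a limma adjusted p of 0.047. Klf10 had -0.48 ± 0.09 (limma adjusted p 0.071), Klf7 0.42 ± 0.09 (limma adjusted p 0.078), Klf13 0.09 ± 0.03 (limma adjusted p 0.12) and Klf9 0.10 ± 0.04 (limma adjusted p 0.16). Klf5 and Klf6 had 0.07 ± 0.04 and 0.00 ± 0.07, with limma adjusted p 0.31 and 0.98. The Klf4 call was lost with every other setting tried, while its slope stayed above 0. Its slope was 1.34 with normexp and loess, 1.28 with normexp and median centring, 1.42 to 1.98 without one of the time points and 1.03 with slide as a block, and its limma adjusted p was 0.055 with normexp and loess, 0.088 with normexp and median centring, 0.090 without the filter on dim probes, 0.087 on time in minutes, 0.061 to 0.15 without one of the time points and 0.89 with slide as a block. On time in minutes Klf7 (limma adjusted p 0.0024) and Klf10 (limma adjusted p 0.018) passed instead, 2 of the 7 members beside 26.4% of all probes tested.

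The mean of 30, 60 and 120 min was set against that of 5, 10 and 15 min in the same way, and 0% of the 20203 probes passed, none of the 7 members included. At an unadjusted limma p under 0.05 there were 2701 probes (13.4%), and 5 of the 7 members, Klf4, Klf5, Klf9, Klf10 and Klf13. With normexp and median centring there were 2 of the 7, beside 23.0% of all probes, and with slide as a block 1 of the 7, beside 3.45%. Without the 60 min pools there were 2 of the 7, beside 8.56% of all probes, and without the 5 min pools 3, beside 7.67%. The difference in log2 fold, late minus early, was 4.63 ± 0.83 (SE) for Klf4, -1.33 ± 0.40 for Klf10, 1.04 ± 0.44 for Klf7 and 0.37 ± 0.08 for Klf9, with limma adjusted p of 0.23, 0.34, 0.38 and 0.29. Without the 30 min pools Klf10 passed, with -1.81 and a limma adjusted p of 0.0064, as did 466 probes in all. On the slide that held 15 and 30 min the log2 fold differed, 30 minus 15 min, by 2.21 for Klf4, -0.35 for Klf10 and 0.18 for Klf7.

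**Figure D5:**
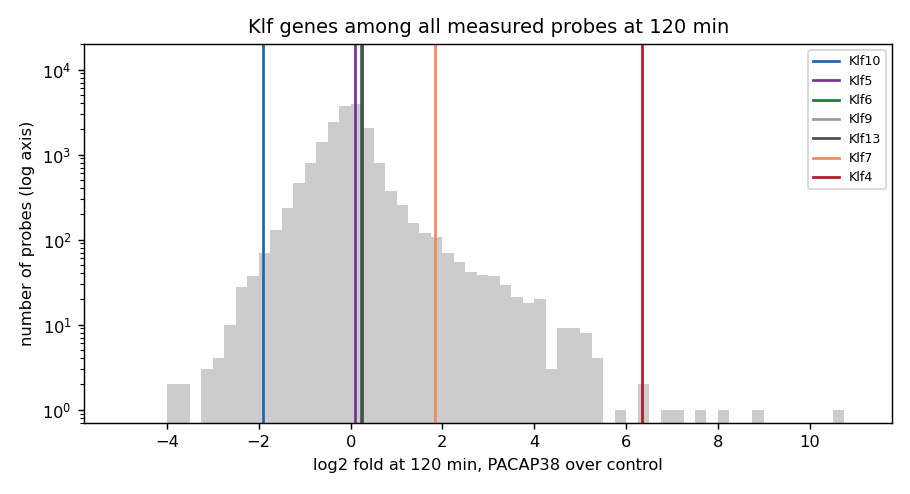
Number of probes (vertical axis, log scale) by log2 fold of PACAP38 over control at 120 min (horizontal axis, bins of 0.25) for the 17482 probes well above background, with the 7 measured Klf genes as coloured lines. Klf4 at 6.35 and Klf7 at 1.84 lie in the upper tail and Klf10 at -1.90 in the lower, while the lines of Klf5, Klf6, Klf9 and Klf13 overlap between 0.10 and 0.26.

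For each called member the 3 genes of closest course were taken from 926 genes outside the family that were called at some time, by the root mean square difference in log2 fold over the 6 time points. For Klf4 these were Egr3, a zinc finger early gene, at 0.81, Rgs2, a regulator of G protein signalling, at 0.88, and the nuclear receptor Nr4a2 at 1.05. Klf4 itself was at 1.32 and 3.34 at 10 and 15 min. Egr3 was then lower, at 0.52 and 1.88, Rgs2 was at 1.39 and 2.68, and Nr4a2 at 2.34 and 3.64. Egr3 was at 5.48, 7.44 and 7.12 at 30, 60 and 120 min, Rgs2 at 4.79, 7.50 and 8.07, and Nr4a2 at 4.73, 4.92 and 5.08, so Rgs2 was still higher at 120 than at 60 min, when Klf4 was lower. For Klf7 they were Edrf1 at 0.07, Cpeb4, an mRNA-binding protein of the polyadenylation machinery, at 0.12, and Zfp612 at 0.14. For Klf10 they were Rwdd3 at 0.20, Lrr1 at 0.21 and the zinc finger gene Zfp78 at 0.21. All 3 of the Klf7 companions were under 1 at 60 min and between 1.74 and 1.85 at 120 min, and the 3 of Klf10 were between -1.99 and -1.60 at 60 min.

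Of all 41012 probes 3.9% were called at some time point, and 8.48% of the 18720 probes well above background at some time point. Of 16 other Klf and Sp genes 6 were well above background, and 1 was called, Klf11. The median log2 fold of these 6 at 120 min was -0.62, beside -0.03 over all probes. Sp1, Sp3 and Sp6, named after their values were seen, were at -0.67, -0.57 and -0.83 at 120 min, all below 0 on both arrays and none 2-fold on the processed signals. With normexp and loess they were at -0.55, -0.16 and -0.81, and with normexp and median centring at -0.76, -0.22 and -1.03. The other uncalled genes of that list well above background were Klf16, at -0.45, and Klf1, at 0.12 with -0.31 and 0.56 on its arrays. Of 12 genes for corepressors, coactivators and ubiquitin ligases that act with Klf proteins 11 were found on the array, and 1 was called: Sin3a, the scaffold of a histone deacetylase complex that Klf10 and Klf11 bind, was at -1.36 and -1.22 at 120 min, and at a mean of -0.43 with normexp and loess, where it was not 2-fold. None of the 10 upstream genes (Mapk7, Map2k5, the Mef2 genes, Srf, Elk1, Elk4, Creb1 and Atf1) was called at any time, and the median log2 fold of the 9 well above background was -0.06 at 60 min and -0.24 at 120 min. Of 24 genes known as targets of Klf factors in other cells 15 were well above background and 2 were called, both higher and both at 120 min, when 1.95% of all probes were called higher. Cdkn1a, the cell cycle inhibitor p21 that Klf4 and Klf6 activate elsewhere, had log2 folds of 1.69 and 1.39, and Odc1, the enzyme of polyamine synthesis that Klf4 represses elsewhere, 1.69 and 1.53, and with normexp and median centring 1 array of each lay under 2-fold, at 0.74 and 0.83. The median of the 15 targets well above background was -0.07 at 120 min, and no gene of these 4 lists passed the slope test among the 6, 11, 9 and 17 tested.

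Promoter windows of 250 bases before to 50 after the start were at hand for 7 of the 10 members (RefSeq, GRCr8): Klf3, Klf4, Klf5, Klf6, Klf7, Klf9 and Klf15. The half-site TGACG of the cAMP response element occurred on either strand in 3 of the 7 windows, those of Klf5, Klf9 and Klf15, and in 21.2% of all 33469 windows. The full palindrome TGACGTCA, which contains it, occurred in none of the 7 and in 1.83% of all, and GCGNGGGCG, the Egr site, in none of the 7 and in 4.98% of all. TGANTCA, a pattern wider than the AP-1 site, which has C or G at its centre, was in 7.33% of all windows. It was in the window of Klf9, there with A at the centre. A CArG box was in that of Klf6 and in 1.64% of all. The Klf4 and Klf7 windows held none of these letters, the windows of Klf3, Klf4 and Klf15 lay wholly inside the RefSeq gene span, and a window says nothing of sites outside it.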

How the data were processed

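Total RNA was pooled per group and hybridised with dye swap. Per the file headers, Feature Extraction 12.0.3.1 made the deposited Cy3 and Cy5 intensity values, background-subtracted and LOWESS dye-normalized, with mean and background intensity beside them, while the submitters' processing notes name 11.0.1.1. The spot p-value was deposited with the files. The deposited value table holds the log10 ratio of Cy5 over Cy3, not turned for the swap. It was used as an alternative.

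Ratios were turned to PACAP38 over control. Control and outlier-flagged spots (197 to 267 an array) were left out, spots of a probe were averaged, and the brightest probe (highest mean processed signal over all arrays) stood for a gene. Levels were scaled between arrays by limma's Aquantile. The slope and the late against early comparison used limma 3.58.1 in R 4.3.3, on probes that passed the well above background flag with either RNA on each of the 2 arrays of some time point, with Benjamini-Hochberg adjustment, two-sided. The fits were run on simulated data with independent noise, straight or stepped changes and no slide effect. That run does not cover differences between slides. Each time point is 1 value, so the limma p-values rest on the scatter of these values about the fitted line or means. That scatter also holds any course over time that the fit does not follow, and differences between slides. The spread between pools at the same time was not measured. Other tables used Python 3.11.15 and pandas 2.3.3. Positions are those of the array annotation (rn4).

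The members and lists were chosen with earlier results of these data known. Named beside the members were the 3 genes of closest course for each called member and, of each list, the members called at any time, at most 6. Sp1, Sp3, Sp6, Klf1 and Klf16, the uncalled upstream genes and uncalled cell type markers were named beyond this. Alternatives were normexp (offset 50) with loess or median centring, the value table, 1 array alone, other call limits, filters and probes, slide as a block and each time point left out. Arrays have no read depth, and the number of pools, 1 a group and time point, limits the precision.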

Additional observations from a re-analysis of the deposited data

Results flagged for a closer look

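Klf6 moved in opposite directions at the last pair of time points. On both arrays its log2 fold was below 0 at 60 min and above 0 at 120 min, a difference of 0.89 on the brightest probe, and both time points lay on 1 slide. With 1 pool a group it could not be tested and was not tested, and with normexp and median centring the value at 120 min was -0.04.

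Klf7 had log2 folds of -0.22 and -0.17 at 5 min and of 1.89 and 1.80 at 120 min, a difference of 2.03 in the means. The values at 5 min had spot p of 0.29 and 0.42, and this difference was not tested either. The second Klf7 probe was at -0.23 and 0.01 at 5 min, so that it did not share the sign on both arrays.

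No control pool of a measured member stood apart from the other control pools by Dixon's 95% limit. The highest ratio of gap to range was 0.610, for the Klf7 control at 5 min.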

How the results depend on the processing

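Klf4 from 15 min on and Klf10 at 60 and 120 min were called under all 9 alternatives of the call. Klf7 at 120 min was called under 8, the exception being normexp with median centring. An array alone, no p limit, a fold limit of 1.5 and any probe are looser rules, which could not lose a main call. The value table gave the same folds. Only the normexp settings and the demand that both RNAs be well above background on both arrays could lose one. At 10 min 0 members were called with normexp and loess and 0 with normexp and median centring, in place of 1. The number of members past the slope threshold was 1, and became 0 with normexp and loess, with normexp and median centring, with dim probes kept and with slide as a block, and 2 on time in minutes. Leaving out 1 time point at a time gave 0 to 0 members for the slope and 0 to 1 for late against early. The probes past the slope threshold went from 147 to 29 with normexp and loess, 1 with normexp and median centring, 0 without the filter and with slide as a block, and 5335 on time in minutes, and 0 to 153 without a time point. For late against early they were 0, also with slide as a block (added after the data were seen), and 466 without 30 min. Median centring moved the median of all measured probes to 0.12 at 15 min and -0.12 at 120 min. The causes were not tested. Klf7 at 120 min was 3.58-fold, or 3.06-fold and 2.64-fold with the normexp settings. Within a time point no paired analysis was possible because each group has 1 pool there. Over the 6 time points all fits used ratios of treated to control pools paired on the arrays. The limit is 1 pool a group and time point.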
